A study of Mus musculus with 48 samples.

Results

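The major histocompatibility complex (MHC) of the mouse is named H2, and the genes described here are the 35 whose symbol starts with H2- among the 29221 genes counted in whole liver RNA. They were taken by symbol, whatever their biotype, and divided by symbol into 25 class I genes, 9 class II genes and H2-Ke6, an enzyme gene that lies in the same region and presents no antigen. All 35 lie on chromosome 17 of GRCm38. The mice carried floxed alleles of Pparg, the gene of the nuclear receptor PPARγ, and received AAV8-TBG-Cre or AAV8-TBG-null as adults after 16 weeks on a diet. The TBG promoter is active in hepatocytes, so the mice given Cre are labelled hepatocyte knockouts and the mice given the null virus are controls, and every mouse of the series received a virus. Male groups held 6 libraries each: controls and labelled knockouts on a high fat diet for 34 weeks (HF), and controls and labelled knockouts on 18 weeks of the high fat diet followed by 16 weeks of a high fat, cholesterol and fructose diet (HFCF). Female groups held 4 libraries each and covered the same 4 combinations, plus controls and labelled knockouts on a low fat diet for 34 weeks (LF). The labels give the liver state as healthy on LF, steatosis on HF and steatohepatitis on HFCF, and they give every library its own mouse. No age beyond "adult" and no strain is named, so the H2 haplotype of the mice is not known here, and the reference genome carries the haplotype of its own strain.

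Class I molecules are heavy chains bound to β2-microglobulin, and they show peptides from the cell's own cytosol to CD8 T cells. H2-K1 and H2-D1 encode the classical, widely expressed heavy chains, while the Q, T and M regions hold nonclassical relatives, many of which are expressed in few cell types or serve as ligands of natural killer or γδ T cells. Class II molecules are pairs of an alpha and a beta chain that show peptides from engulfed material to CD4 T cells. They are made mainly by dendritic cells, macrophages and B cells, and in the liver also by Kupffer cells. The invariant chain Cd74 guides new class II molecules to endosomes, H2-DM exchanges the invariant chain fragment for peptide, and H2-O holds H2-DM back. The transactivator Ciita drives the class II genes together with Cd74, and its relative Nlrc5 does the same for class I genes.

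The 48 libraries held 15338239 to 22072884 reads on genes. Pparg itself was not lower in any labelled knockout group: its mean was 41.2 against 34.3 CPM (reads of the gene scaled to a fixed total per library) in HF males and 55.9 against 32.0 CPM in HFCF males. By edgeR's quasi-likelihood test it was higher in labelled knockouts by 0.81 on the log2 scale in HFCF males (adjusted p = 0.000805). In HFCF females it was higher by 0.97 (adjusted p = 0.0422). These reads are summed over the whole gene and the labels do not name the floxed exons, so they do not check the deletion, and directions below are for libraries labelled knockout. Some libraries stood apart from their group. The HFCF control male replicate 1 had a sum of H2-Aa, H2-Ab1 and H2-Eb1 of 215 CPM against 541 to 759 CPM in the other 5, and low biliary, macrophage and dendritic marker sums. The HF control female replicate 1 had a sum of 288 CPM against 67.9 to 128 CPM, and a biliary marker sum of 276 CPM against 42.9 to 72.5 CPM. The HFCF labelled knockout female replicate 1 and the HF labelled knockout male replicate 4 had the highest class I sums of all libraries, 8033 and 8374 CPM. The HF labelled knockout female replicate 3 had macrophage and dendritic marker sums of 1225 and 64.7 CPM against 500 to 633 and 18.4 to 25.2 CPM. The main calls that changed without these libraries are given beside the results. Hepatocyte markers were the highest of the marker lists in every group, and no marker gene of any list was at 0 reads throughout a group.

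Per kilobase of gene length, and averaged over all 48 libraries, H2-K1 had the highest level, 710 CPM per kb, followed by H2-Q10, which encodes a secreted class I protein of the liver, at 613 CPM per kb. H2-D1 followed at 352 CPM per kb and H2-T23, which encodes the Qa-1 heavy chain, at 107 CPM per kb. The group means of H2-K1 spanned 636 to 787 CPM per kb and those of H2-Q10 spanned 538 to 735 CPM per kb, so this pair was not separated in level, whereas H2-D1 at 321 to 389 CPM per kb lay below both in every group. On this mean over all groups the class II chains came next, with H2-Eb1 at 93.1, H2-Ab1 at 72.8 and H2-Aa at 58.4 CPM per kb, and their group means spanned several fold (H2-Eb1 from 37.6 to 186 CPM per kb), so the order changed between groups. In HFCF control males H2-Eb1 at 158 CPM per kb lay above H2-T23 at 84.5, and in HF control females at 37.6 it lay below H2-T22 at 41.9. Among the nonclassical class I genes H2-T22 stood at 41.9, H2-Q4 at 32.4, H2-Q6 at 31.9, H2-Q1 at 25.4 and H2-Q7, a gene of the Qa-2 antigen, at 25.1 CPM per kb. The H2-DM genes were scarcer, at 8.47 CPM per kb for H2-DMb1, 6.40 for H2-DMa and 1.04 for H2-DMb2, and the H2-O chains stood at 0.641 (H2-Ob) and 0.281 CPM per kb (H2-Oa). The remaining named members were H2-K2 (17.7 CPM per kb), H2-Q5 (9.92), H2-M3 (4.52), H2-T24 (3.75), H2-T10 (2.07), H2-M2 (1.59), H2-T-ps (1.26), H2-Bl (0.922) and H2-Q2 (0.729).

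**Figure D1:**
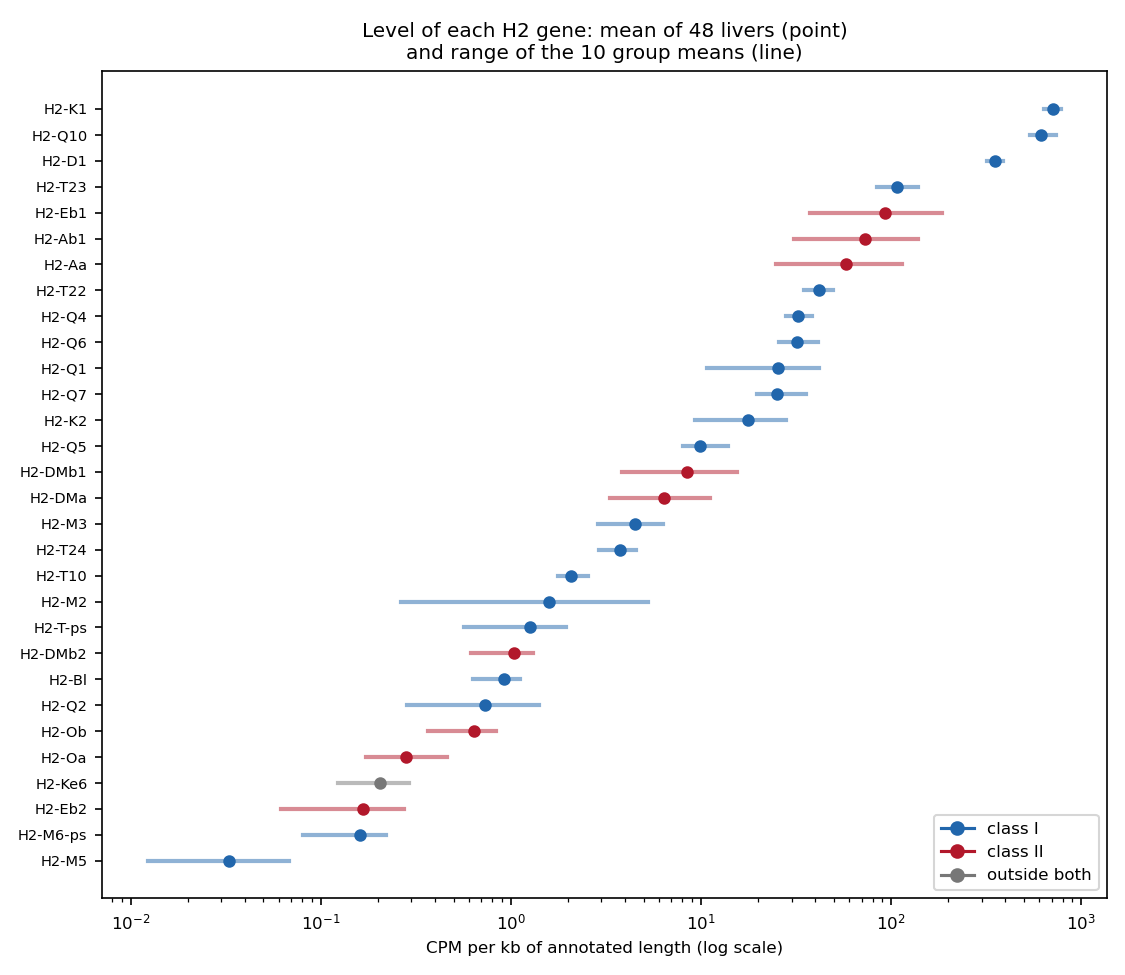
Levels of H2 genes per kilobase of gene length (log axis, CPM per kb), for the 30 members with reads in every group. Points are means over the 48 libraries and lines span the lowest to the highest of the 10 group means. H2-K1, H2-Q10 and H2-D1 lie at the top with narrow ranges, the class II chains H2-Eb1, H2-Ab1 and H2-Aa have wider ranges, and H2-M2 has a wider one still, from 0.263 to 5.28 CPM per kb.

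Of the 35 members, 24 had enough reads to be tested in all 13 comparisons of 2 groups, and H2-M2 was tested in 9. The other 10 were never tested in them: H2-M5, H2-M6-ps, H2-M10.1, H2-M10.2, H2-M10.6, H2-Q3, H2-T3, H2-Oa, H2-Eb2 and H2-Ke6. Close copies limit some single genes. Whether a read that matches several places was assigned or left out was set by the authors' counting and not checked here. In the GENCODE M21 transcripts of GRCm38, searched on both strands, 31.5% of the 100-base windows of H2-T22 and 28.1% of those of H2-T10 also occurred in another gene, most often A930015D03Rik and BC023719. The share was 14.1% for H2-Q4, 14.0% for H2-Q5, 13% for H2-Q6, 12.0% for H2-Q7, 8.1% for H2-Q1, 8.0% for H2-Q10, and 11.3% and 10.3% for H2-DMb1 and H2-DMb2, which share with each other. It was 6.6% for H2-DMa, with Brd2, and 5.4% for H2-T-ps and 5.1% for H2-Q2, both mostly with H2-Q1. It was 3.6% for H2-D1, 3.2% for H2-T23, 1.6% for H2-K2, 1.0% for H2-K1, and 0 for H2-Aa, H2-Ab1, H2-Eb1, H2-M2, H2-M3, H2-T24 and H2-Ob. Part of these shares need not come from copies. A930015D03Rik held 24.0% of the windows of H2-T22, Gm11131 held 11.8% of those of H2-Q4, and each overlaps that gene on the chromosome. Such windows can be the same bases annotated under both genes, and were not separated from copies elsewhere. For the Q genes, H2-T22, H2-T10, H2-T-ps, H2-DMa, and H2-DMb1 against H2-DMb2, reads may be missing or come from another gene. These shares do not measure how many. The libraries were not strand specific, so reads from overlapping genes on the opposite strand cannot be told apart either. H2-K2, H2-T-ps, H2-Q3 and H2-M6-ps are annotated as unprocessed pseudogenes, and H2-Q5, H2-T10 and H2-Bl as polymorphic pseudogenes.

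Class II genes were higher on HFCF. The alpha and beta chains H2-Aa (chr17:34282744-34287827, minus strand), H2-Ab1 (chr17:34263209-34269418, plus strand) and H2-Eb1 (chr17:34305877-34316199, plus strand), and the peptide-loading genes H2-DMa (chr17:34135182-34139101, plus strand) and H2-DMb1 (chr17:34153072-34160230, plus strand), rose in all 6 comparisons of an HFCF group with its HF or LF group. H2-Ob did not pass in any of the 6, and H2-DMb2 passed only in labelled knockout males. HFCF libraries are shared between the comparisons with HF and with LF, so those pairs of comparisons are not independent of each other.

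The sequence just before the start of H2-Aa, H2-Eb1 and H2-DMb1 is shown because these genes of separate roles moved together and class II genes are known for a shared promoter module, the W, X and Y boxes to which the Ciita complex binds. Each line gives 250 bases of GRCm38.p6 from RefSeq, 5′ to 3′ on the gene's strand, ending at the base before the RefSeq start. They are chr17:34287824-34288073 (minus strand) for H2-Aa, chr17:34305617-34305866 (plus strand) for H2-Eb1 and chr17:34152941-34153190 (plus strand) for H2-DMb1. Capitals mark GATTGG, the core of the Y box (CCAATC where it reads on the opposite strand), TGACGTCA, the letters of the X2 box in H2-Aa, and CTGATGATG, a run chosen after the sequences were seen because H2-Eb1 and H2-DMb1 both hold it at a like distance.
H2-Aa: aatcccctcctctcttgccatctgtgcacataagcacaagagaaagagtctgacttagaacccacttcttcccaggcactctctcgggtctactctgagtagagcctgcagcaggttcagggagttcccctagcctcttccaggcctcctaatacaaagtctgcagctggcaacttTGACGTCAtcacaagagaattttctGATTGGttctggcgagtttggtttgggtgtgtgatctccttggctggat
H2-Eb1: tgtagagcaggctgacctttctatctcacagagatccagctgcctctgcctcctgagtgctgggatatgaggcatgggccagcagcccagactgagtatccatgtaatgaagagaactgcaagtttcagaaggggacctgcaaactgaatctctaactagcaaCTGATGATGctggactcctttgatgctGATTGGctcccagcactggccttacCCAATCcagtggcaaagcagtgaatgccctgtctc
H2-DMb1: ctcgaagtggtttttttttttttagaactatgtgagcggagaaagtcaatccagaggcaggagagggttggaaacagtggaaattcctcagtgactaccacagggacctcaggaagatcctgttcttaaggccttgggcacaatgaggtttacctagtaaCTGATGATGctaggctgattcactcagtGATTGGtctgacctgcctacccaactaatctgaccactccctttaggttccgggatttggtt
The Y box letters lay from -49 to -44 in H2-Aa, from -60 to -55 in H2-Eb1 and from -62 to -57 in H2-DMb1, counted back from the start, with another match in H2-Eb1 on the opposite strand from -35 to -30. The RefSeq start of H2-DMb1 lies 119 bases inside the gene as the authors' table bounds it. TGACGTCA lay from -74 to -67 in H2-Aa, and CTGATGATG from -87 to -79 in H2-Eb1 and from -90 to -82 in H2-DMb1, in each case upstream of the Y box. Searched on both strands of the 250 bases before 32851 RefSeq starts, GATTGG was in 14.6% of promoters and in 20 of the 26 H2 members with an entry, TGACGTCA in 1.55% and in 1 member, and CTGATGATG in 0.447% and in 2 members. These are matches of letters and not measured binding. The 20 include H2-DMa and H2-DMb2, whose RefSeq starts lie 9664 and 1942 bases from the start of the gene in the authors' table. For both, the bases searched may not be the promoter of the gene as counted.

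In females the HFCF controls had H2-Aa at 217, 270, 156 and 212 CPM, against 92.8, 28.6, 41.8 and 22.6 CPM in HF controls and 129, 106, 55.2 and 57.4 CPM in LF controls. Every HFCF library lay above every HF and LF library, and replicate 1 of HF and replicates 1 and 2 of LF were the high libraries of their groups. H2-Aa was higher by 2.21 on the log2 scale against HF (SE 0.41, adjusted p = 0.00713) and by 1.28 against LF. In the same libraries H2-Eb1 stood at 217, 282, 162 and 219 CPM on HFCF, at 88.8, 29.1, 40.2 and 20.2 CPM on HF and at 145, 101, 54.8 and 50.4 CPM on LF, again without overlap. Its log2 difference was 2.31 against HF (SE 0.41, adjusted p = 0.00662) and 1.31 against LF (SE 0.32, adjusted p = 0.0115). Of all genes tested, 30.8% were called in the comparison with HF (16.9% higher and 13.8% lower) and 35.2% in that with LF (18.4% higher and 16.8% lower), at a Benjamini-Hochberg adjusted p under 0.05 by edgeR's quasi-likelihood test. Against this background 5 of the 7 class II members tested were called, all higher, with a median log2 difference over the 7 of 1.81 against HF and 1.14 against LF, while the medians over all genes tested were -0.019 and -0.025. H2-Ab1 rose by 2.11 and 1.14, H2-DMb1 by 1.81 and 1.17, and H2-DMa by 1.74 and 0.97. Without the HF control female replicate 1 the differences from HF were larger, 2.80 for H2-Aa, 2.73 for H2-Ab1 and 2.89 for H2-Eb1, with 43.6% of all genes called.

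In labelled knockout females the same 5 class II genes were called higher on HFCF. H2-Aa was at 119, 186, 170 and 199 CPM on HFCF, at 63.5, 39.1, 54.4 and 28.7 CPM on HF and at 80.9, 52.8, 32.1 and 69.1 CPM on LF, with no HFCF library in the range of the other diets. The log2 difference was 1.86 against HF (SE 0.25, adjusted p = 0.00297) and 1.56 against LF. H2-Eb1 was at 136, 196, 161 and 186 CPM on HFCF against 68.7, 38.5, 52.0 and 23.6 CPM on HF and 78.4, 52.7, 31.6 and 69.0 CPM on LF, and rose by 1.90 (SE 0.28, adjusted p = 0.00398) and 1.59. H2-Ab1 rose by 1.79 and 1.41, H2-DMb1 by 1.75 and 1.51, and H2-DMa by 1.47 and 1.22. Here 14.5% of all genes were called against HF (8.44% higher and 6.01% lower) and 12% against LF (8.26% higher and 3.74% lower), beside 5 of the 7 class II members, all higher, in each. The medians over the 7 were 1.75 and 1.41, and over all genes -0.009 and 0.014. Without HFCF replicate 1 the share of all genes called was 29.1% against HF and 23.8% against LF, with H2-Aa at 2.01 and 1.67 and H2-Ab1 at 1.90 and 1.48. Without HF replicate 3 it was 17.4% against HF, and the same 5 class II genes were called.

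In males H2-Aa in HFCF controls ran from 68.8 through a median of 191 to 238 CPM, and in HF controls from 61.8 through 65.9 to 103 CPM. The ranges overlapped through a single HFCF library, replicate 1 at 68.8 CPM, since the other 5 stood at 172 CPM or more. In labelled knockouts H2-Aa ran from 126 through 155 to 201 CPM on HFCF and from 36.5 through 49.9 to 77.6 CPM on HF, without overlap. H2-Aa rose by 1.31 in controls (SE 0.23, adjusted p = 0.00212) and by 1.58 in labelled knockouts. H2-Eb1 ran from 67.9 through 199 to 251 CPM on HFCF and from 58.2 through 66.6 to 95.1 CPM on HF in controls, and from 125 through 153 to 202 CPM against 33.4 through 48.2 to 74.1 CPM in labelled knockouts. It rose by 1.41 (SE 0.24, adjusted p = 0.00181) and 1.62. In control males 22.3% of all genes were called (13% higher and 9.31% lower) with 5 of 7 class II members, and in labelled knockout males 41.7% (21.6% higher and 20% lower) with 6 of 7. The sixth was H2-DMb2, the second beta chain of H2-DM, at 2.03 against 1.28 CPM on average (log2 difference 0.69, adjusted p = 0.0262), a call lost without any of HF replicates 1, 2 and 5 or HFCF replicates 2 and 3 (adjusted p up to 0.0633). Medians over the 7 were 1.30 and 1.42, and over all genes 0.006 and -0.020. Without the HFCF control male replicate 1, the control differences were 1.48 for H2-Aa and 1.58 for H2-Eb1, H2-Ob was also called higher, and 37.0% of all genes were called.

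**Figure D2:**
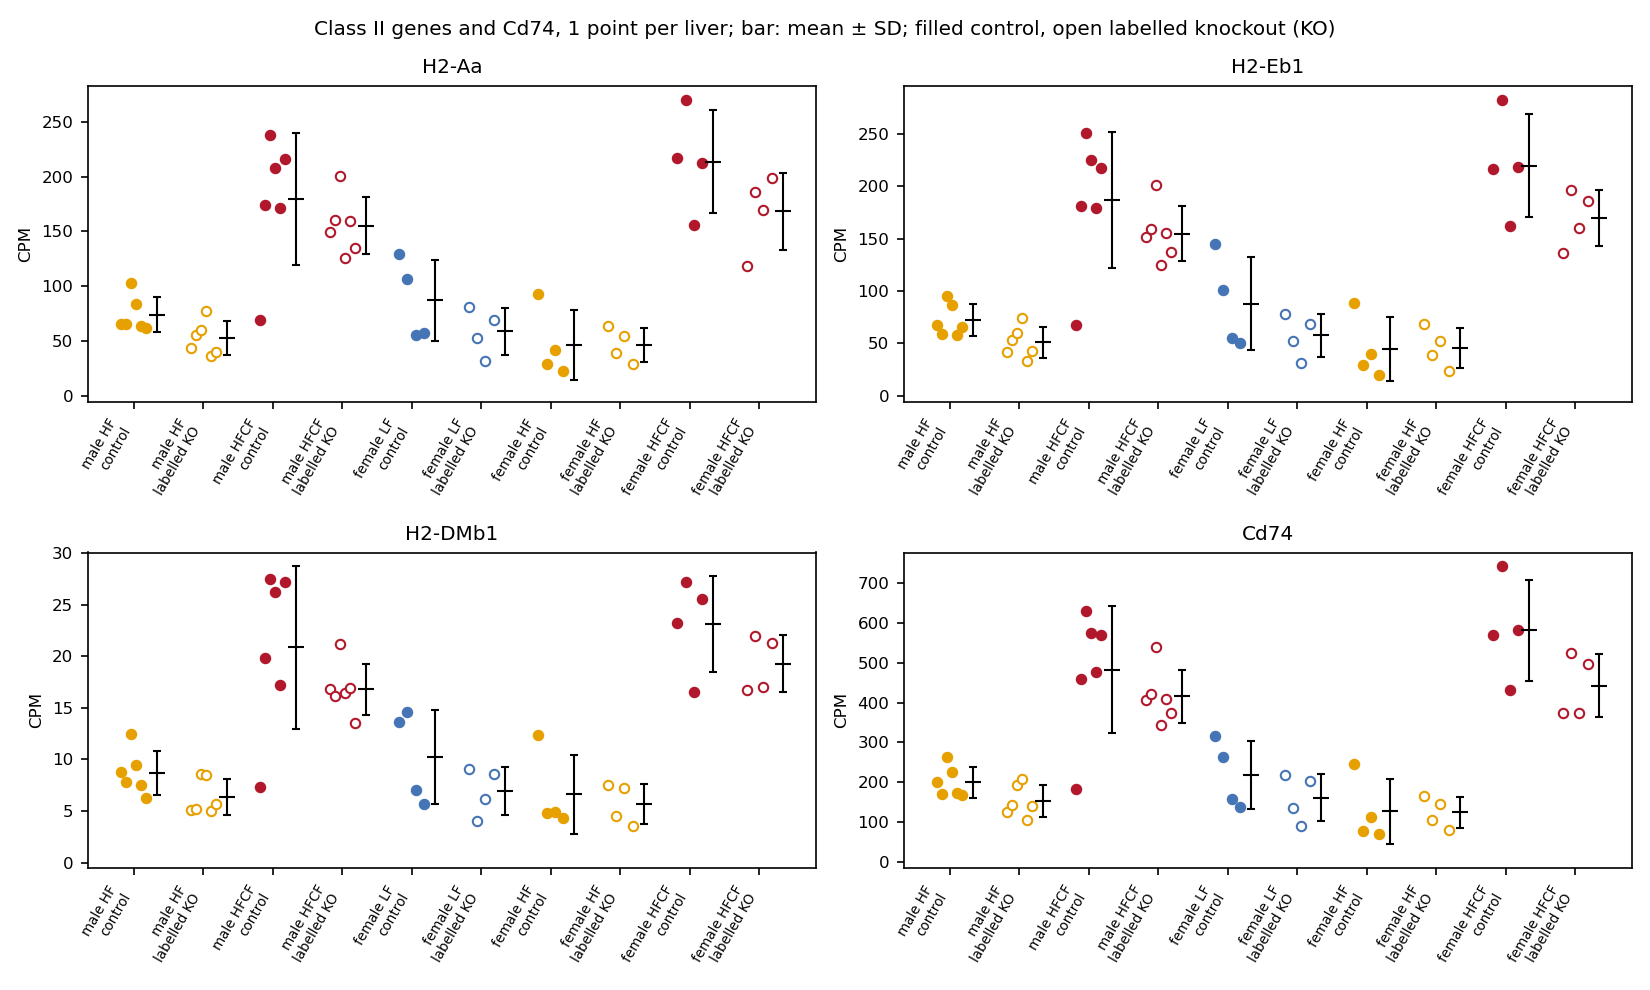
Level of H2-Aa, H2-Eb1, H2-DMb1 and Cd74 in each of the 48 libraries (CPM, linear axis) by group, with bars for the group mean ± SD, filled points for controls and open points for labelled knockouts. HFCF libraries lie above most HF and LF libraries for each gene, except the HFCF control male replicate 1, which lies among the HF males.

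H2-Ob, the beta chain of the inhibitor H2-O, was not called in any comparison of 2 groups. Its HFCF against HF or LF differences were 0.87, -0.16 and 0.65 in control females against HF, control females against LF and control males. In labelled knockouts they were -0.08 in females against HF, -0.12 in females against LF and 0.73 in males (adjusted p = 0.0502). It was at 1.27, 1.55, 1.12 and 0.674 CPM in HF control females, the lowest group, and at 3.07, 2.37, 2.6 and 1.97 CPM in HF labelled knockout females, which did not overlap (log2 difference 1.12, adjusted p = 0.522). H2-Oa, its partner chain, was too scarce to be tested.

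The partners of class II were measured in the same fits. Cd74, the invariant chain, rose in all 6 comparisons, by 2.19, 1.39 and 1.30 in control females against HF, control females against LF and control males, and by 1.83, 1.49 and 1.46 in the labelled knockouts in that order. Its mean was 581 CPM in HFCF control females against 127 CPM on HF and 219 CPM on LF. Ciita, the transactivator, rose by 2.04, 1.17 and 1.31 in controls and by 1.51, 1.34 and 1.69 in labelled knockouts, at 16.9 CPM in HFCF control females against 4.10 CPM on HF. In labelled knockout females the Ciita calls were lost in 3 of the 8 fits without a library against HF and in 5 of 8 against LF (adjusted p up to 0.0577 and 0.0927). Of the 10 class II processing genes listed, which include the endosomal proteases, 6 were called higher in each comparison except the labelled knockout females against HF, where 4 were. Of all genes, 16.9%, 18.4%, 13%, 8.44%, 8.26% and 21.6% were called higher, in the order of comparisons used for Cd74. Ctss, the protease cathepsin S that trims the invariant chain, rose by 1.76, 1.25, 1.28, 1.39, 1.39 and 1.09, and Lgmn, an asparagine endopeptidase, by 1.26, 1.16, 0.75, 1.0, 1.02 and 0.80, in the order of comparisons used for Cd74. The one call in the other direction was Rfxap, a subunit of the complex at the X box, which fell by 0.48 in control females against LF.

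Markers of other cells moved in the same comparisons. Of all genes, 16.9%, 18.4%, 13%, 8.44%, 8.26% and 21.6% were called higher, in the order of comparisons used for Cd74. The shares called lower were 13.8%, 16.8%, 9.31%, 6.01%, 3.74% and 20%. Of 11 macrophage and Kupffer cell markers, 7 were called higher in each comparison of control mice, 1 and 7 in labelled knockout females against HF and LF, and 8 in labelled knockout males, with 1 lower in labelled knockout females against LF and 2 lower in labelled knockout males. All 5 biliary markers were called higher in all 6 comparisons, and 1 to 5 of the 8 dendritic cell markers. Of 9 hepatocyte markers, 6, 7 and 6 were called lower in controls, and 0, 1 and 7 in labelled knockouts. The HFCF labelled knockout female replicate 1 had a hepatocyte marker sum of 113948 CPM against 65554 to 81509 CPM in its group. Without that library, 7 of 9 were called lower in labelled knockout females against HF and also against LF, where 29.1% and 23.8% of all genes were called. Of 6 B cell markers 0 to 3 were called higher and, in control females against LF, 2 lower. Of 6 sinusoidal endothelium markers, 4, 3 and 0 were called higher in controls (1 lower against LF) and 1, 0 and 1 in labelled knockouts. The median log2 difference of the macrophage markers was 1.37 in control females against HF and 0.71 in control males, beside 1.81 and 1.30 for the class II members, that of the dendritic markers 0.99 and 0.67, and that of the biliary markers 2.01 and 1.52. In control females against LF the medians were 0.98 for macrophage, 0.05 for dendritic and 1.75 for biliary markers, beside 1.14 for class II. In labelled knockout females against HF, leaving out HF replicate 3 raised the macrophage markers called higher from 1 to 8 of 11. The part of these markers in the class II result was not tested, and in RNA of whole liver fewer or more cells of a type and less or more RNA per cell cannot be told apart.

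**Figure D3:**
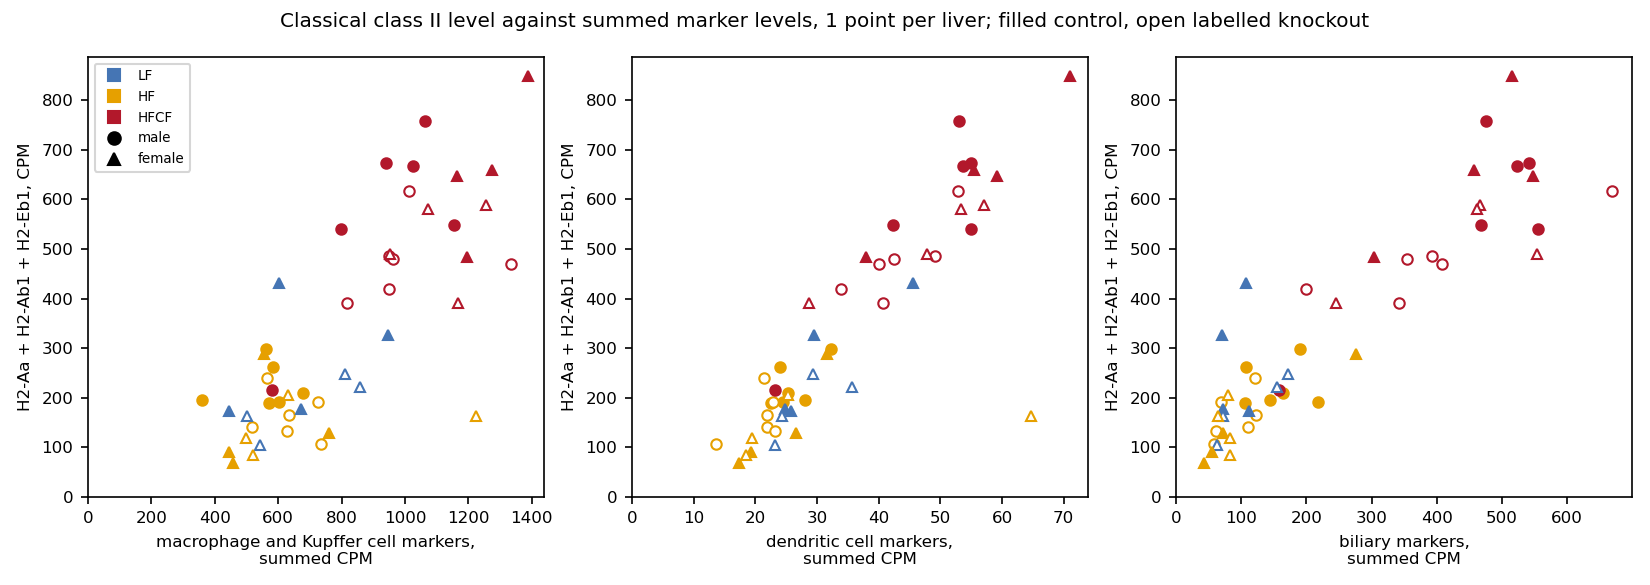
Summed level of the classical class II genes H2-Aa, H2-Ab1 and H2-Eb1 in each library (CPM, vertical axis) against the summed level of macrophage, dendritic and biliary markers (CPM, horizontal axes), both on linear axes, with colour for diet, shape for sex and open points for labelled knockouts. HFCF libraries lie at the upper end of the class II axis, and the HFCF control male replicate 1 lies below the other HFCF libraries in class II. The HF control female replicate 1 lies apart from the other HF libraries in biliary markers (276 CPM) and within their range in class II.

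The classical class I genes H2-K1 and H2-D1 were not called in any of the 13 comparisons. H2-K1 (chr17:33996017-34000333, minus strand) stood at 1744, 1561, 1764 and 1567 CPM in HFCF control females and at 1866, 1683, 1978 and 1806 CPM in HF control females. The ranges overlapped, and over all 13 comparisons its log2 difference lay between -0.24 and 0.33 with no call. H2-D1 (chr17:35262730-35267499, plus strand) was at 968, 987, 856 and 910 CPM against 962, 822, 842 and 692 CPM in the same groups, and its differences lay between -0.10 and 0.31 with no call. Their group means ran from 1659 to 2054 CPM for H2-K1 and from 829 to 1003 CPM for H2-D1. The highest H2-K1 library was the HFCF labelled knockout female replicate 1 at 2748 CPM. B2m, the light chain of all these molecules, had group means of 1393 to 1778 CPM, and neither it nor Nlrc5 was called in any comparison.

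H2-Q10 (chr17:35470089-35474563, plus strand), the secreted form, had its highest group mean in HF control males. In labelled knockout males it ran from 2564 through 2855 to 3631 CPM on HF and from 2071 through 2366 to 2521 CPM on HFCF, and these ranges did not overlap. It was lower on HFCF by a log2 difference of -0.32 (SE 0.08, adjusted p = 0.00667), its only call in the 13 comparisons. In control males it ran from 2792 through 3218 to 3538 CPM on HF and from 2260 through 2563 to 3237 CPM on HFCF, and was called lower only without the HFCF control male replicate 1. In HF control females it was at 3006, 1751, 3107 and 2564 CPM, a spread wider than any difference between diets in females.

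The upstream sequences of H2-K1, H2-D1 and H2-Q10 are shown because these abundant class I genes are close relatives of which H2-Q10 alone is made mainly by liver. They are 250 bases each from the same RefSeq table of GRCm38.p6, at chr17:34000334-34000583 (minus strand), chr17:35262844-35263093 (plus strand) and chr17:35469839-35470088 (plus strand), and that of H2-D1 ends at a RefSeq start inside the gene as the authors' table bounds it. Capitals mark GGGGATTCC, the kappa B letters of enhancer A, TTTCACTT, the letters of the interferon-stimulated response element, and GATTGG or its reverse complement CCAATC.
H2-K1: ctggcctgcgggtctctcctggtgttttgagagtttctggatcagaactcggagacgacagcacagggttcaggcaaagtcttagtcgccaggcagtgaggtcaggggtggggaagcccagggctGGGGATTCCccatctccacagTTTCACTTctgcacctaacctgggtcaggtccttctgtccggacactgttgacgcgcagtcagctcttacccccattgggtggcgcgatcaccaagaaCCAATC
H2-D1: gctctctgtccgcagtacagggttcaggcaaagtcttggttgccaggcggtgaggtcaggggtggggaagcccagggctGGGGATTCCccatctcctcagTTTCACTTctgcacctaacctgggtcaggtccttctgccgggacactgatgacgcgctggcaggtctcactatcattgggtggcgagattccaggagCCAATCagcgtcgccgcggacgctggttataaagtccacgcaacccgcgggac
H2-Q10: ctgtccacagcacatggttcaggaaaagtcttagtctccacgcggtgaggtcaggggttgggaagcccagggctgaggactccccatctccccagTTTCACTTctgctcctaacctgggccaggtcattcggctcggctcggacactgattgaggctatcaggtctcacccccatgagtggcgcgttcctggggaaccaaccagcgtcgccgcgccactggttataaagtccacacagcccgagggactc
GGGGATTCC lay from -125 to -117 in H2-K1 and from -171 to -163 in H2-D1, with no match in H2-Q10. TTTCACTT lay from -104 to -97 in H2-K1, from -150 to -143 in H2-D1 and from -155 to -148 in H2-Q10. CCAATC lay from -6 to -1 in H2-K1 and from -53 to -48 in H2-D1, and had no match in H2-Q10. Each of these runs lay closer to the start in H2-K1 than in H2-D1, and positions depend on where RefSeq sets the start. On both strands, GGGGATTCC was in 0.213% of the 32851 promoters and in 4 members, which were H2-K1, H2-D1, H2-Q6 and H2-Q7, and TTTCACTT was in 1.36% and in 9 members. Neither run was in any of the 8 class II promoters searched, which leave out H2-Ab1 and include H2-DMa and H2-DMb2 at their distant RefSeq starts.

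**Figure D4:**
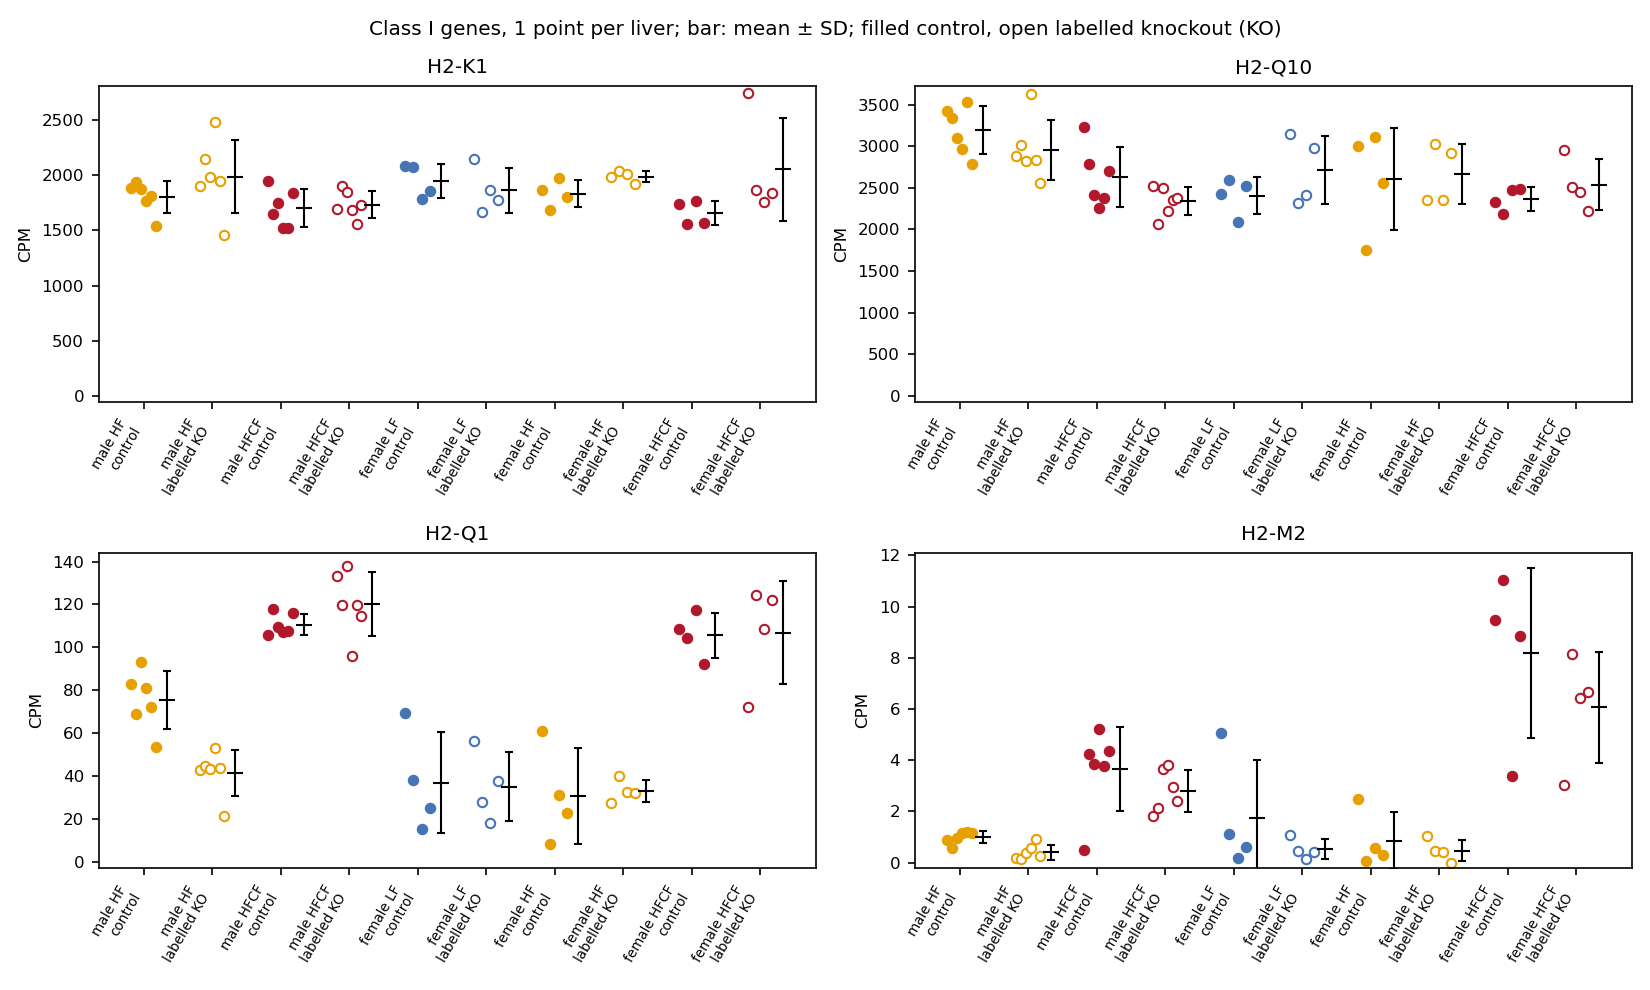
Level of H2-K1, H2-Q10, H2-Q1 and H2-M2 in each of the 48 libraries (CPM, linear axis) by group, with bars for the group mean ± SD, filled points for controls and open points for labelled knockouts. H2-K1 and H2-Q10 have group ranges that overlap on most diets, whereas H2-Q1 and H2-M2 lie higher in the HFCF groups.

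Beyond these, a small set of nonclassical class I genes rose on HFCF. H2-Q1 (chr17:35320405-35325099, plus strand) was at 109, 104, 117 and 92.3 CPM in HFCF control females, against 60.9, 8.30, 31.3 and 22.8 CPM on HF and 69.6, 38.3, 15.5 and 25.1 CPM on LF. It did not overlap between HFCF and either diet, and rose by 1.78 (SE 0.45, adjusted p = 0.0186) and 1.49 (SE 0.37, adjusted p = 0.0110). The call against HF was lost without HF replicate 3 or 4 (adjusted p up to 0.0526). In labelled knockout females H2-Q1 was at 72.4, 125, 108 and 122 CPM on HFCF, 27.6, 39.9, 32.7 and 32.1 CPM on HF and 56.5, 28.1, 18.4 and 38.0 CPM on LF, with no overlap, and rose by 1.70 and 1.65. In control males it ran from 106 through 109 to 118 CPM on HFCF and from 53.9 through 76.8 to 93.1 CPM on HF, and rose by 0.58 (SE 0.10, adjusted p = 0.00196). In labelled knockout males it ran from 95.8 through 120 to 138 CPM and from 21.4 through 43.6 to 53.3 CPM, and rose by 1.55. The group means of H2-Q1 thus lay between 106 and 120 CPM in all 4 HFCF groups and between 30.8 and 75.4 CPM in the 6 HF and LF groups.

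H2-M2 (chr17:37480851-37483552, minus strand), scarce elsewhere, was at 9.48, 11, 3.40 and 8.85 CPM in HFCF control females and at 2.48, 0.0619, 0.560 and 0.306 CPM in HF control females. These did not overlap, and the log2 difference of 3.23 (SE 0.71, adjusted p = 0.0115) was 4.71 without HF replicate 1. In HFCF labelled knockout females it was at 3.01, 8.15, 6.43 and 6.65 CPM, against 1.02, 0.461, 0.392 and 0 CPM on HF. The differences were 3.64 against HF and 3.56 against LF, and they were 4.35 without HF replicate 1 and 4.18 without LF replicate 1 of the labelled knockouts. Against LF, whose controls were at 5.07, 1.11, 0.180 and 0.603 CPM, the difference in control females was 2.21 (adjusted p = 0.0343). It was 3.71 without LF replicate 1, and was called in only 2 of 8 fits without a library, being lost without LF replicates 2, 3 or 4 or HFCF replicates 1, 2 or 5 (adjusted p up to 0.0827). In males H2-M2 rose by 1.94 in controls and 2.75 in labelled knockouts, and the HFCF control male replicate 1 at 0.490 CPM was its one low HFCF library. Because H2-M2 passed the minimum of reads through the HFCF groups in several comparisons, the counts over class I members are given below without it. H2-T-ps and H2-Q2 passed in all 13 comparisons and stay in those counts, but they were also scarce. H2-T-ps had 41 reads in the LF control females against 131 on HFCF. H2-Q2 had 43 reads in the HF labelled knockout females against 155 on HFCF. Both share windows with H2-Q1, which averaged 72.5 CPM over the 48 libraries, against 1.59 for H2-Q2 and 1.34 for H2-T-ps. The part of H2-Q1 reads in their values was not tested.

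The other class I calls were smaller or less steady. H2-M3, which presents formylated peptides of bacteria and mitochondria, was at 8.83, 11.1, 8.40 and 8.05 CPM in HFCF control females against 4.5, 4.83, 4.48 and 2.63 CPM on HF, without overlap. It rose by 1.15 there (SE 0.20, adjusted p = 0.00644), by 0.69 in control males and by 0.49 in labelled knockout males. H2-Q2 rose by 1.26 in control females against LF, 1.28 in control males, 1.70 in labelled knockout females against HF and 1.57 in labelled knockout males, from means of 0.821, 1.30, 0.618 and 0.744 CPM in that order. The pseudogene H2-T-ps rose by 1.45 in control females against LF, 1.60 in labelled knockout females against HF and 1.28 in labelled knockout males. H2-T24 rose by 0.52 in control females against HF. Among these, several calls in females depended on single libraries. The H2-Q2 call in labelled knockout females was lost without HF replicates 1, 2 or 4 or HFCF replicates 2, 3 or 4, and that in control females without LF replicates 2 or 3 or HFCF replicate 2. The H2-T-ps call in labelled knockout females was lost without HF replicate 1 or HFCF replicates 2, 3 or 4, and the H2-T24 call without HF replicates 2 or 4 or HFCF replicates 1 or 2.

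Some class I genes were lower on HFCF. H2-T23 (chr17:36029773-36032855, minus strand) was at 275, 256, 277 and 263 CPM in HFCF control females against 447, 362, 333 and 381 CPM on LF, without overlap, and was lower by a log2 difference of -0.52 (SE 0.11, adjusted p = 0.00632). H2-Q7 and H2-Q6 were lower in the same comparison by -0.70 and -0.48, with H2-Q7 at 94.9, 86.1, 83.1 and 72.7 CPM against 100, 169, 145 and 130 CPM. In that comparison 4 of 14 interferon response genes were called lower and 0 higher, and their part in these values was not tested. H2-T23 was also lower in labelled knockout males by -0.31 (adjusted p = 0.00995), the pseudogene H2-K2 in control males by -0.53, and H2-Q5 in labelled knockout females against HF by -0.46. The call of H2-Q5, a polymorphic pseudogene, held in 1 of 8 fits without a library, that without HFCF replicate 1. Its adjusted p by edgeR's quasi-likelihood test reached 0.130 in the others. Without HFCF replicate 1 of the labelled knockout females, H2-Q7 was also called lower against HF and LF, and H2-T23 against HF. Without HF control female replicate 1, H2-T23 was called lower in control females against HF. Over the 17 class I members tested other than H2-M2 the calls were 3 higher and 0 lower in control females against HF, 3 and 3 against LF, 3 and 1 in control males, 3 and 1 in labelled knockout females against HF, 1 and 0 against LF, and 4 and 2 in labelled knockout males. The backgrounds for these calls are 30.8%, 35.2%, 22.3%, 14.5%, 12% and 41.7% of all genes, and the medians over the 17 were 0.04, -0.13, 0.10, -0.06, 0.08 and 0.02.

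Class I processing genes are given beside the share of all genes called. That share was 30.8% in control females against HF, 35.2% against LF and 22.3% in control males. In labelled knockouts it was 14.5% in females against HF, 12% against LF and 41.7% in males. Of 15 listed, called higher and lower were 1 and 2 in control females against HF, 0 and 3 against LF, 1 and 1 in control males, 0 and 0 in both comparisons of labelled knockout females, and 0 and 4 in labelled knockout males. Tap1, a subunit of the peptide transporter, rose by 0.27 in control females against HF, and its partner Tap2 by 0.29 in control males. Psmb8, an immunoproteasome subunit, was lower by -0.29 in control females against LF. In labelled knockout males the chaperones of the loading complex Calr, Pdia3 and Canx fell by 0.62, 0.53 and 0.31.

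**Figure D5:**
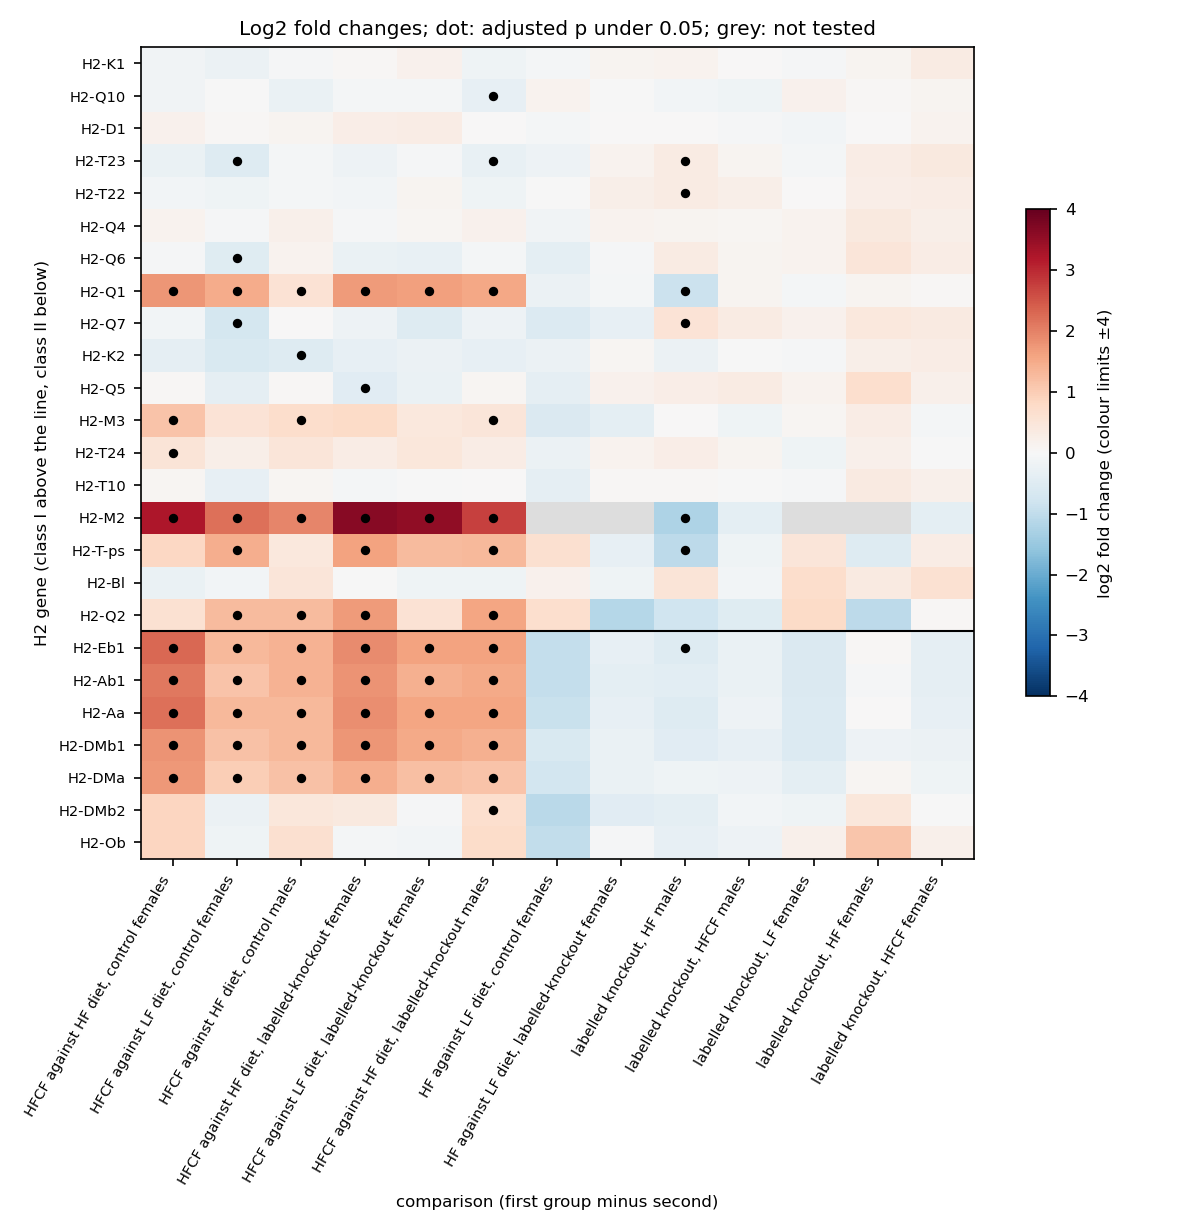
Log2 differences of the 25 tested H2 genes (rows, class I above class II) in the 13 comparisons of 2 groups (columns), red for higher and blue for lower in the group named first, with the colour limit at 4, dots on called genes and grey where a gene was not tested. The rows of H2-Aa, H2-Ab1, H2-Eb1, H2-DMa and H2-DMb1 are red with dots in the 6 HFCF columns, and among the 5 labelled knockout columns only that of HF males has dots.

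The labelled knockout was compared with control within each sex and diet. In HF males 7 of 25 members were called where 18.5% of all genes were (8.57% higher and 9.88% lower), 3 of them higher and 4 lower, or 6 of 24 without H2-M2. H2-Q1 ran from 53.9 through 76.8 to 93.1 CPM in controls and from 21.4 through 43.6 to 53.3 CPM in labelled knockouts. The ranges lie close together without overlapping, and H2-Q1 was lower in labelled knockouts by a log2 difference of -0.87 (SE 0.17, adjusted p = 0.00203). H2-Q7 ran from 67.6 through 85.8 to 95.1 CPM in controls and from 96.6 through 119 to 165 CPM in labelled knockouts, which did not overlap, and was higher by 0.54 (SE 0.11, adjusted p = 0.00364). H2-T23 and H2-T22, which encode nonclassical ligands of natural killer and γδ T cells, were higher by 0.33 and 0.34 with overlapping ranges (adjusted p = 0.0106 and 0.0145). H2-Eb1 was lower by -0.51 (SE 0.17, adjusted p = 0.0469), H2-M2 by -1.22 (adjusted p = 0.0318) and H2-T-ps by -1.06 (adjusted p = 0.0476). H2-M2 and H2-T-ps rest on few reads, 40 and 72 over the 6 labelled knockout libraries against 104 and 168 over the 6 controls. The calls of H2-Eb1, H2-M2 and H2-T-ps held in 4, 4 and 3 of the 12 fits without a library, with adjusted p up to 0.117, 0.0709 and 0.124. They were lost without control replicates 3 or 6 or labelled knockout replicates 1, 2 or 6 for all of H2-Eb1, H2-M2 and H2-T-ps. H2-Eb1 was also lost without control replicates 1 or 4 or labelled knockout replicate 5, H2-M2 without control replicates 4 or 5 or labelled knockout replicate 3, and H2-T-ps without control replicates 1 or 5 or labelled knockout replicates 3 or 5. Without the HF labelled knockout male replicate 4, 11 members were called, among them H2-Aa at -0.65 and H2-Ab1 at -0.55, with 19.6% of all genes called. The class II median was -0.41, with all 7 tested members below 0. Beside these, 7 of 9 hepatocyte markers were called higher in labelled knockout HF males and 3 of 14 interferon response genes. Of the dendritic, B cell, biliary and sinusoidal endothelium markers 1 each was called lower, with medians of -0.37 for dendritic and -0.39 for B cell markers, all 6 of which lay below 0. The summed macrophage and Kupffer cell markers averaged higher in labelled knockouts, at 634 CPM (SD 86.5) against 559 CPM (SD 106) in controls. The summed T and NK cell markers averaged 5.74 CPM (SD 1.45) against 6.44 CPM (SD 2.13). The part of these lists in the result was not tested.

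H2-Q1 also differed between the diets in its response. In HFCF males its control and labelled knockout ranges overlapped, from 106 to 118 and from 95.8 to 138 CPM. The difference of the labelled knockout effect between HFCF and HF males was a log2 value of 0.97 (SE 0.20, adjusted p = 0.0134, interaction term in edgeR's quasi-likelihood test), with labelled knockout means of 120 against 111 CPM on HFCF and 41.6 against 75.4 CPM on HF. It was the only member called where 1.56% of all genes were. The call held in all 24 fits without a library and was lost when all 10 groups were fitted together. H2-Q1 is a value to be read with the 8.1% of its windows found in other genes. H2-Q2 held 3.4% of them and H2-D1 came next, and 3.3% of the windows of H2-D1 were in H2-Q1. Over the 48 libraries H2-Q2 averaged 1.59 CPM and H2-D1 909 CPM. Among the processing genes Pdia3 had an interaction of -0.61.

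No member was called in the other labelled knockout comparisons or in HF against LF by edgeR's quasi-likelihood test. Over all genes 2.21% were called for labelled knockout in HFCF males, 0% in LF females, 0% in HF females and 0.0534% in HFCF females, and 0.696% and 0.155% for HF against LF in control and labelled knockout females. Members at an unadjusted p under 0.05 numbered 3, 0, 8, 0, 7 and 2 in that order, of 24 or 25 tested, where 14.2%, 2.49%, 8.03%, 8.95%, 16.3% and 13.4% of all genes were under it. DESeq2's Wald test called 1, 0, 1, 0, 2 and 0 members. The shares of all genes given here are edgeR's, so these DESeq2 counts stand without a background of their own. The class II medians for labelled knockout against control were -0.21 in HFCF males, -0.54 in LF females, 0.04 in HF females and -0.24 in HFCF females. For HF against LF they were -0.94 in control females and -0.32 in labelled knockout females. H2-Aa in the control females shows the spread behind the first: 129, 106, 55.2 and 57.4 CPM on LF and 92.8, 28.6, 41.8 and 22.6 CPM on HF overlapped, with replicates 1 and 2 high on LF and replicate 1 high on HF. In HFCF males, leaving out control replicate 1 gave 4 calls, with H2-Eb1 at -0.45, H2-Ab1 at -0.44 and H2-DMb1 lower and H2-T22 higher, where 7.09% of all genes were called. In HF against LF control females, leaving out LF control replicate 1 gave a call of H2-Q7 lower.

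Whether an effect differed by sex or by virus was tested directly in 5 further interactions, and no member was called in any. These were labelled knockout by diet in females, where 0% of all genes were called, labelled knockout by sex on HF (0%) and on HFCF (0%), and HFCF against HF by sex in controls (0.00646%) and in labelled knockouts (0.013%). Members at an unadjusted p under 0.05 numbered 2, 3, 0, 1 and 1 of 25 to 27 tested by edgeR, where 4.32%, 10.6%, 9.67%, 16.5% and 11.9% of all genes were under it, and DESeq2's Wald test called 0 in each. The larger class II differences of control females (H2-Aa 2.21) than of control males (1.31) were therefore not shown to differ. Without the HF control female replicate 1, 5 members were called for diet by sex in controls, with H2-Aa and H2-Eb1 at -1.48, H2-Ab1 at -1.32, H2-Q1 at -1.76 and H2-M2 at -2.76 (males minus females), where 10.8% of all genes were called. Without the same library H2-Q1 was called for labelled knockout by sex on HF, at -1.52 (adjusted p = 0.0418), where 1.88% were. The pseudogene H2-K2 had group means of 9.72 to 14.4 CPM in males and 19.2 to 29.4 CPM in females, a difference between the sexes that was not tested.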

How the data were processed

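RNA of 48 whole livers was sequenced from libraries that were not strand specific, per the labels' protocols. Per the submitters' processing notes, reads were aligned with STAR 2.6.1 to GRCm38 (mm10) and counted with HTSeq 0.6.1. The deposited tables hold the authors' raw counts per gene, a normalised signal that equals the count divided by 1 factor per library, FPKM, and the authors' log2 fold changes and p-values, and only the raw counts were analysed. Totals per library set the precision, and a gene under about 1 CPM rests on few reads. Each library is its own mouse, so p-values measure the spread between mice.

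Raw counts were joined by gene identifier over the deposited tables, with 0 value columns left without a sample. CPM used TMM-scaled library sizes, and CPM per kb divided by the deposited gene length. Each comparison was fitted over all genes kept by filterByExpr with edgeR 4.0.16 (R 4.3.3, limma 3.58.1) by the quasi-likelihood test, on its own groups, and called at a Benjamini-Hochberg adjusted p under 0.05. The script was tested on simulated data. Alternatives were DESeq2 1.42.0 size factors and Wald test, no filter, at least 10 counts in every library, a single fit of all 10 groups, a block for replicate number, and leaving out each library. The named genes were the classical and accessory class II genes, H2-K1, H2-D1, members with a mean of at least 1 CPM (25), members called, and fixed processing genes with up to 3 further called ones per comparison. Of the 94 listed symbols, 93 were found. Members and lists were chosen with earlier results of these data known. Promoters are from RefSeq, with 26 of 35 members matched, and H2-Ab1 and H2-Q1 are named only.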

Additional observations from a re-analysis of the deposited data

Results flagged for a closer look

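In groups of 4 to 6 libraries, Dixon's test of the highest or lowest library was applied to 320 combinations of a named gene and a group, and 18 stood apart, where chance alone flags about 1 in 20. Among class I genes the HFCF labelled knockout female replicate 1 was far above its group for H2-K1 (2748 CPM) and H2-Q7 (147 CPM). H2-T23 was high in HF control female replicate 2 (401 CPM), H2-Q6 in HF control male replicate 3 (65.9 CPM) and H2-Q5 in HF labelled knockout male replicate 4 (25.8 CPM). H2-Q1 and H2-T24 were low in HF labelled knockout male replicate 6 (21.4 and 5.58 CPM). H2-M3 was high in HFCF labelled knockout male replicate 3 (9.62 CPM) and low in HF control female replicate 4 (2.63 CPM). H2-M2 and H2-T-ps were low in HFCF control male replicate 1 (0.490 and 1.22 CPM), and H2-T-ps was high in HFCF labelled knockout female replicate 4 (2.47 CPM). Among class II genes H2-Ab1 was high in HFCF labelled knockout male replicate 3 (215 CPM) and H2-DMb1 in HF control female replicate 1 (12.4 CPM).

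Among the partner genes B2m was low in HFCF control female replicate 5 (1269 CPM), Nlrc5 was low in LF control female replicate 4 (48.8 CPM) and high in HFCF control female replicate 1 (57.1 CPM), and Tap1 was high in HF labelled knockout male replicate 4 (92.3 CPM). The effect of the labelled knockout differed between HFCF and HF males, by the interaction test, for H2-Q1 (0.97 on the log2 scale) and for Pdia3 (-0.61).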

How the results depend on the processing

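Of 119 gene values called, all 119 stayed called with DESeq2's size factors and with its Wald test, 112 without a filter on low counts, 102 of the 105 still testable with at least 10 counts in every library, 107 with all 10 groups in one fit, and 1050 of 1184 when a library was left out. No direction reversed. Counts of H2 genes called moved in a few settings. They include H2-M2 where it was tested, and are given without the share of all genes called in each setting. DESeq2's Wald test gave 1 for the labelled knockout in HFCF males and in HF females, and 2 for HF against LF in control females, as did the fit of all 10 groups, where the main count is 0. At least 10 counts in every library gave 6 for HFCF against HF in labelled knockout females (main count 10), and all 10 groups in one fit gave 0 for the knockout by diet interaction in males (main count 1). The cause was not tested.

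Leaving out 1 library gave 4 to 11 H2 genes called for the labelled knockout in HF males, 0 to 4 in HFCF males and 0 in each female comparison. For HFCF against HF it gave 7 to 11 in control females, 10 to 13 in control males, 7 to 12 in labelled knockout females and 12 to 16 in labelled knockout males. For HFCF against LF it gave 10 to 13 and 7 to 9, and for HF against LF 0 to 1 and 0. The interactions gave 1 for knockout by diet in males, 0 to 1 for knockout by sex on HF, 0 to 5 for diet by sex in controls, and 0 in the other 3. All these ranges include H2-M2 where it was tested. Without H2-M2 the main fits of HFCF against HF called 8 of 24 members in control females and 9 in control males. In labelled knockouts they called 9 in females and 12 in males. The shares of all genes called in these fits were 30.8%, 22.3%, 14.5% and 41.7%.

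Libraries of the same replicate number are different mice, and no comparison had every same-number pair correlated above 0.1. With the replicate number as a block, 85 of the 119 gene values stayed called. HFCF against HF in control females, with 3 shared numbers, gave 0 H2 genes (main count 9) and 0 of all genes. The depth limits the genes under 1 CPM, of which 10 members could not be tested.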
